A study of Mus musculus with 15 samples.

Results

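The metabotropic and kainate glutamate receptors were examined in the cortex of mice 1 month after repeated head impact. The genes were Grm2, Grm3, Grm5, Grm7 and Grm8, which encode metabotropic receptors, and Grik2, Grik3 and Grik5, which encode kainate receptor subunits. Every listed transcript whose GENCODE M21 gene name was on this list was taken, which gave 10 transcripts of these 8 genes among 10370 listed transcripts of 7740 annotated genes and 129 transcripts with no entry in that annotation. Each gene had a single listed transcript except Grm7, which had 3.

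The libraries were made from total RNA of the cortex. The mice were male, labelled as strain C57BL/6 and as 12 weeks of age, with 7 libraries in the Sham and 8 in the high-frequency head impact (HF-HI) group. The HF-HI procedure was a series of closed-head impacts, repeated daily under isoflurane. In the Sham procedure the device never struck the head, while isoflurane was given all the same. No transgene or deletion was labelled in either group, and each library was a sample of its own. The values were read as normalized counts, which are reads divided by the size factor of the library, and the comparison was always HF-HI against Sham.

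Glutamate acts on ion channels and on G protein-coupled receptors. Metabotropic receptors belong to the second kind: group I receptors such as Grm5 activate phospholipase C through Gq and sit mainly on the postsynaptic side, while group II (Grm2, Grm3) and group III (Grm7, Grm8) receptors act through Gi/o, lower cyclic AMP and restrain transmitter release. Kainate receptors are glutamate-gated channels, in which Grik2 and Grik3 are low-affinity subunits that can form channels by themselves and Grik5 is a high-affinity subunit that needs one of them as a partner.

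The annotation holds 43 transcripts of the 8 genes, of which 10 were listed. Grm3 and Grik3 have a single annotated transcript, and for the other genes reads were divided among overlapping transcripts by estimation. The coding ends that separate the transcripts are shown because they mark which receptor form each value stands for. The sequences were read from the GENCODE M21 transcripts (GRCm38), 5′ to 3′ on the transcribed strand. Alternative coding bases are in capitals, with shared coding bases before them and the stop codon after them in lower case. In Grm7-204, shared bases stand between the capitals and the stop codon. The Grm5-204 stretch is an inner exon with shared coding bases on both sides and no stop codon. A pair of listed Grm7 forms differ in their last coding exon, at chr6:111566018-111566064 (+) for Grm7-202 (ENSMUST00000172951) and at chr6:111501510-111501577 (+) for Grm7-201 (ENSMUST00000071076). The third, Grm7-204 (ENSMUST00000174018), is annotated for nonsense-mediated decay and carries an inserted exon of 34 bases at chr6:110703442-110703475 (+) that is soon followed by a stop codon.
Grm7-202: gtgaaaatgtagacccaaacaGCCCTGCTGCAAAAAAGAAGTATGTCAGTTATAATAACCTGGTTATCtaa
Grm7-201: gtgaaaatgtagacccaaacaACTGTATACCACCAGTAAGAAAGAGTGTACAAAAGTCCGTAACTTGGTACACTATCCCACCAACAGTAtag
Grm7-204: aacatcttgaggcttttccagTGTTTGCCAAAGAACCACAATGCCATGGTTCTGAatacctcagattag

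The listed Grik2 transcript, Grik2-201 (ENSMUST00000079751), ends with 45 coding bases at chr10:49105021-49105065 (-). Another annotated form that was not listed, Grik2-202 (ENSMUST00000105484), ends with 162 coding bases at chr10:49101111-49101272 (-).
Grik2-201: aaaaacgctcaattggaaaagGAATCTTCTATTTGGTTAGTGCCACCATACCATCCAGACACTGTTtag
Grik2-202: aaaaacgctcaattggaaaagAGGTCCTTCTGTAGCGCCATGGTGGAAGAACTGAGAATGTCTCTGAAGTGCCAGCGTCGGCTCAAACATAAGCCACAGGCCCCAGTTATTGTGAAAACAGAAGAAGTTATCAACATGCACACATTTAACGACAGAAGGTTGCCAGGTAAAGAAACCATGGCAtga

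The listed Grm5 transcript, Grm5-202 (ENSMUST00000125009), lacks a 96-base coding exon at chr7:88116193-88116288 (+) that Grm5-204 (ENSMUST00000155358) holds. The listed Grm8 transcript, Grm8-202 (ENSMUST00000115323), and Grm8-201 (ENSMUST00000090512) end with 47 different coding bases each, at chr6:27285688-27285734 (-) and at chr6:27275648-27275694 (-).
Grm5-204: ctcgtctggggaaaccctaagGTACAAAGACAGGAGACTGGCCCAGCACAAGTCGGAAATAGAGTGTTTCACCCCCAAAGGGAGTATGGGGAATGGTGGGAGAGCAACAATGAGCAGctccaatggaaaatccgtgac
Grm8-202: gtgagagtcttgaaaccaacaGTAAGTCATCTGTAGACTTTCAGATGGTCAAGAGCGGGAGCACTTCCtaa
Grm8-201: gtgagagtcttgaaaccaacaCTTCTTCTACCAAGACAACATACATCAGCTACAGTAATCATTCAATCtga

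No stretch of 50 bases in a listed transcript occurred in any annotated transcript of another of the 8 genes. The coding sequences were most alike for Grik2 and Grik3, with 73.3% of aligned bases identical, for Grm7 and Grm8 (70.9%) and for Grm2 and Grm3 (69.3%). Within a gene the overlap was larger. None of the 50-base stretches of Grik2-201 or Grik5-201 was absent from the other annotated transcripts of the same gene, and 1.56% of those of Grm7-201 were, against 100% for Grm3 and Grik3, which have a single annotated transcript. Grik5-201 was the most GC-rich of the 10 at 62.3% and Grm5-202 the least at 42.5%, and the median of the listed transcripts was 49.2%.

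The libraries differed in depth, with size factors of 0.818 to 1.47 for Sham and 0.501 to 1.22 for HF-HI. On the log2 scale the size factor averaged 0.30 in the Sham and -0.25 in the HF-HI libraries, a difference with p = 0.028 in an exact two-sided permutation test. In 4 libraries Ttr, a gene of the choroid plexus, was high, at 6589 and 6685 normalized counts in Sham replicates 1 and 2 and at 8663 and 8165 in HF-HI replicates 2 and 5, against at most 176 in the others. The other choroid plexus markers Folr1, Kl, Clic6 and Aqp1 were not analysed here. The tissue was labelled cortex. The 8 genes chosen as pyramidal neuron markers and the 9 astrocyte markers were all listed. So were 9 of 10 striatal projection neuron markers and 4 of 5 hippocampal neuron markers, and being listed does not tell the region.

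Per length of transcript, Grm3 was the most abundant of the 8 genes and Grm8 the least. In Sham, normalized counts per kb were 525 ± 17.1 (SD, n = 7) for Grm3, 290 ± 15.7 for Grm5, 236 ± 7.43 for Grm7 with its transcripts summed and 226 ± 13.3 for Grik5. They were 92.8 ± 5.28 for Grik3, 59.9 ± 6.80 for Grm2, 57.7 ± 31.0 for Grik2 and 37.3 ± 5.91 for Grm8. Grm3 lay above Grm5, Grm5 above Grm7, Grik5 above Grik3 and Grik3 above Grm2 in each of the 15 libraries, with no overlap of their ranges. Neighbours that did not separate were Grm7 and Grik5, with Grm7 the higher in 10 of 15 libraries, and Grm2 and Grik2, with Grm2 the higher in 6 of 15. Grik2 was above Grm8 in 12 of 15 libraries. These levels count the listed transcripts only, and the Grik2-201 model of 2610 bases holds 2607 coding bases and next to no untranslated sequence.

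**Figure D1:**
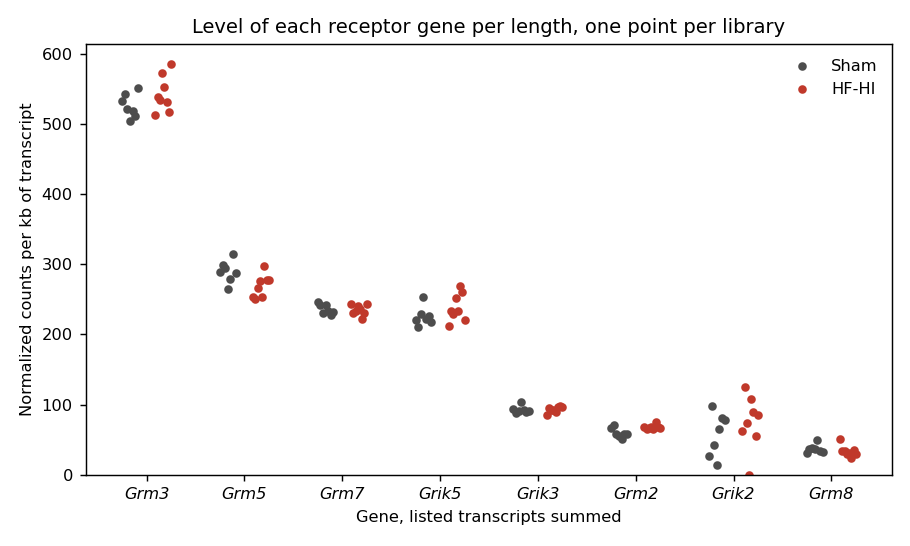
Normalized counts per kb of annotated transcript length (y axis, linear) for the 8 receptor genes (x axis), with listed transcripts summed and a point for each of the 7 Sham (grey) and 8 HF-HI (red) libraries. Grm3 stands apart from the rest at every library, Grm7 and Grik5 overlap, and Grik2 spreads from 0 to 124 per kb.

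At an unadjusted p under 0.05, Grm2 was higher and Grm5 was lower in HF-HI, and the other 8 listed transcripts did not pass. These 2 of 10 transcripts (1 higher, 1 lower) stand against 8.83% of all 10370 transcripts past the same threshold, 4.94% higher and 3.9% lower. No transcript passed an adjusted p of 0.1 over all of them in limma, where 916 passed the unadjusted threshold. The median log2 ratio of group means was 0.03 over the 10 transcripts and -0.00 over all transcripts. With reads summed per gene, 2 of the 8 receptor genes passed the unadjusted threshold, against 9.34% of 7869 (5.1% higher, 4.24% lower), and none of the 7869 passed the adjusted one, while 735 passed the unadjusted one.

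**Figure D2:**
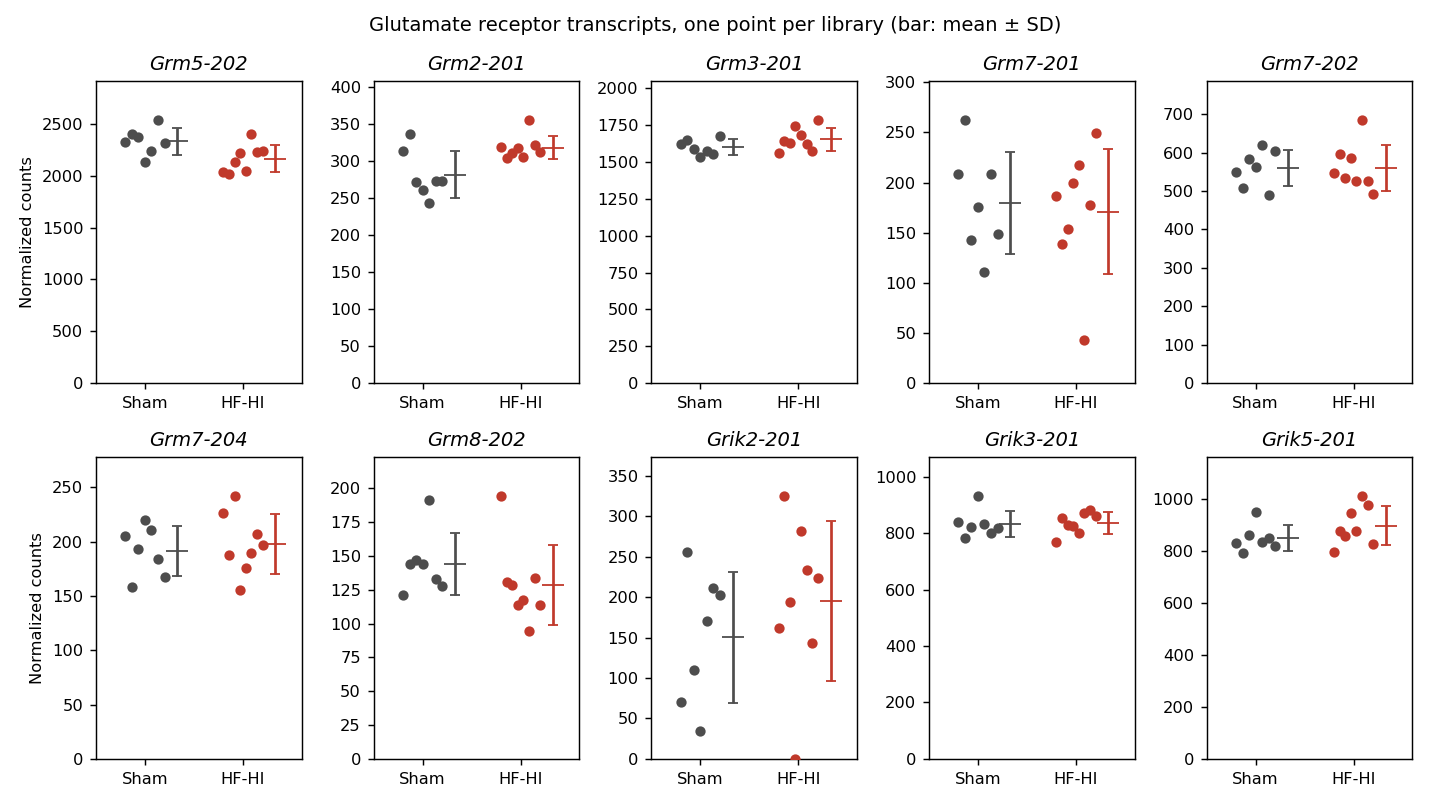
Normalized counts (y axis, from 0) of the 10 listed transcripts, a panel each, in Sham (grey) and HF-HI (red); each point is a library and the bar is the mean ± SD of 7 or 8 libraries. The HF-HI points of Grm2-201 lie between 305 and 355, and those of Grik2-201 range from 0 to 325.

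Grm5, the group I receptor that Homer proteins anchor at the edge of the postsynaptic density, lies on chromosome 7 at 87584393 to 88134907. Its transcript held 2131, 2323 and 2533 normalized counts in the lowest, median and highest Sham library and 2016, 2179 and 2397 in HF-HI, from 1113 to 3395 reads. In 7 of 8 HF-HI libraries the value was below the Sham median, and 3 were below the lowest Sham library, but the groups overlapped. The mean was 2331 ± 126 in Sham (SD, n = 7) and 2164 ± 132 in HF-HI (SD, n = 8), a change of -7.14% between the group means. The VSD difference was -0.066 (SE 0.027; unadjusted p = 0.024, adjusted p = 0.50, limma), and the log2 difference of summed reads was -0.11 with a 95% interval from -0.20 to -0.02 (unadjusted p = 0.019, adjusted p = 0.43, limma voom).

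The Grm5 call depended on which libraries were used. Without Sham replicate 6, its highest library, the VSD difference was -0.054 (unadjusted p = 0.059, adjusted p = 0.65, limma). The log2 difference of summed reads was then -0.09 and still passed the unadjusted threshold (unadjusted p = 0.048, adjusted p = 0.60, limma voom). Without the 4 libraries high in Ttr the log2 difference was -0.07 (unadjusted p = 0.19, adjusted p = 0.84, limma voom). The HF-HI libraries high in Ttr held 2016 and 2044 normalized counts of Grm5, and the other 6 held 2034 to 2397. The Sham libraries high in Ttr held 2323 and 2404, inside the 2131 to 2533 of the other 5. Striatal projection neurons are rich in Grm5, and the summed level of their markers, with 9 of 10 listed and Drd2 not analysed here, spanned 8442 to 12216 normalized counts among Sham and 6121 to 11643 among HF-HI libraries. The part of Ttr and of the striatal markers in the Grm5 difference was not tested.

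Grm2, a group II receptor found mostly on presynaptic terminals, lies on chromosome 9 at 106643117 to 106656080. It held 243, 273 and 337 normalized counts in the lowest, median and highest Sham library and 305, 315 and 355 in HF-HI, from 159 to 448 reads. The Sham median was exceeded in all 8 HF-HI libraries, and 5 of 7 Sham libraries lay below the lowest HF-HI library. The 2 Sham libraries inside the HF-HI span were replicates 1 and 2, with 314 and 337, which are the Sham libraries high in Ttr.

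The mean of Grm2 rose from 282 ± 32.0 in Sham (SD, n = 7) to 319 ± 16.0 in HF-HI (SD, n = 8), 13.0% higher. The VSD difference was 0.050 (SE 0.018; unadjusted p = 0.015, adjusted p = 0.45, limma). The log2 difference of summed reads was 0.18 with a 95% interval from 0.05 to 0.32 (unadjusted p = 0.011, adjusted p = 0.39, limma voom). Without the 4 libraries high in Ttr it was 0.29, from 0.17 to 0.41 (unadjusted p = 0.00022, adjusted p = 0.21, limma voom). This setting was chosen after the data were seen, and it left out the highest Sham and the lowest HF-HI values of Grm2. The HF-HI libraries high in Ttr held 305 and 306 normalized counts, and the other 6 held 311 to 355. Among the libraries high in Ttr alone, the mean of Grm2 was 325 in Sham and 305 in HF-HI, the opposite direction. The part of Ttr in the Grm2 difference was not tested.

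Depth differed between the groups. With the log2 size factor as a covariate the log2 difference of Grm2 was 0.15 (unadjusted p = 0.073, adjusted p = 0.82, limma voom), while that of Grm5 was -0.14 (unadjusted p = 0.014, adjusted p = 0.65, limma voom). In the libraries with a size factor above 1, neither passed, at 0.15 for Grm2 and -0.12 for Grm5. The summed level of the 8 pyramidal neuron markers also moved with group, spanning 32749 to 34497 normalized counts among Sham and 34536 to 37846 among HF-HI libraries, with no overlap, and its part in the Grm2 difference was not tested. In bulk cortex, a change in the number of cells of a type and a change in RNA per cell cannot be told apart.

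**Figure D3:**
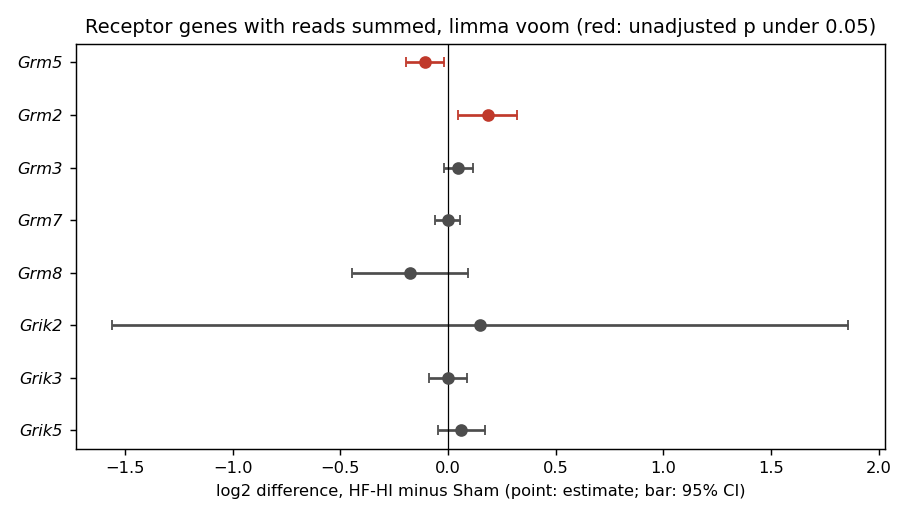
log2 difference HF-HI minus Sham (x axis) for each receptor gene with its listed reads summed (y axis), as the limma voom estimate with its 95% interval; red marks an unadjusted p under 0.05. Only the intervals of Grm2 and Grm5 leave out 0, and the interval of Grik2 is the widest, from -1.56 to 1.86.

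Grm3, the other group II receptor, is made by astrocytes as well as neurons and lies on chromosome 5 at 9485541 to 9725170. It held 1535, 1587 and 1680 normalized counts in the lowest, median and highest Sham library and 1563, 1634 and 1782 in HF-HI. The HF-HI values were above the Sham median in 6 of 8 libraries and above the highest Sham library in 3. The log2 difference was 0.05, from -0.02 to 0.12 (unadjusted p = 0.15, adjusted p = 0.70, limma voom). Grm3 had one of the tightest spreads of the 8 genes, with a coefficient of variation of 3.26% in Sham, against a median of 10.5% over all listed transcripts. Astrocyte markers summed to 57286 to 59957 normalized counts in Sham and 56974 to 62569 in HF-HI.

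Grm7, a group III receptor of the presynaptic active zone, held nearly the same total in both groups. Its 3 listed transcripts together gave 883, 929 and 964 normalized counts in the lowest, median and highest Sham library and 910, 925 and 959 in HF-HI. Each of the 8 HF-HI libraries lay inside the Sham range. The log2 difference was -0.00 with a 95% interval from -0.06 to 0.06 (unadjusted p = 0.95, adjusted p = 0.99, limma voom), which is a fold change of 0.960 to 1.04.

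The division of Grm7 reads among its transcripts varied far more than the total. Grm7-202 took 60.2% ± 4.75 of the gene's reads in Sham (SD, n = 7) and 60.4% ± 6.82 in HF-HI (SD, n = 8), Grm7-204 took 20.5% ± 2.16 and 21.3% ± 2.89, and Grm7-201 took 19.3% ± 5.54 and 18.3% ± 6.62. The form annotated for nonsense-mediated decay thus held about as many reads as the second coding form. None of the 3 shares passed an unadjusted p of 0.05 in limma, against 6.18% of 4140 transcript shares tested, of which 256 passed that threshold and none an adjusted p of 0.1. The unadjusted p was 0.91 for Grm7-202, 0.66 for Grm7-204 and 0.64 for Grm7-201.

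Grm7-201 was the transcript that spread most within the gene. It held 110, 175 and 262 normalized counts in the lowest, median and highest Sham library and 43.0, 182 and 249 in HF-HI. The low HF-HI library was replicate 6, with 35 reads and 4.70% of the gene's reads, and in that library Grm7-202 was at its highest, 684 normalized counts and 74.6% of the reads. The total of Grm7 in each library therefore moved less than its parts: the coefficient of variation in Sham was 2.92% for the sum and 28.3% for Grm7-201. The sequence that sets Grm7-201 apart is the 68-base end printed above, which another annotated Grm7 transcript that was not listed also holds.

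**Figure D4:**
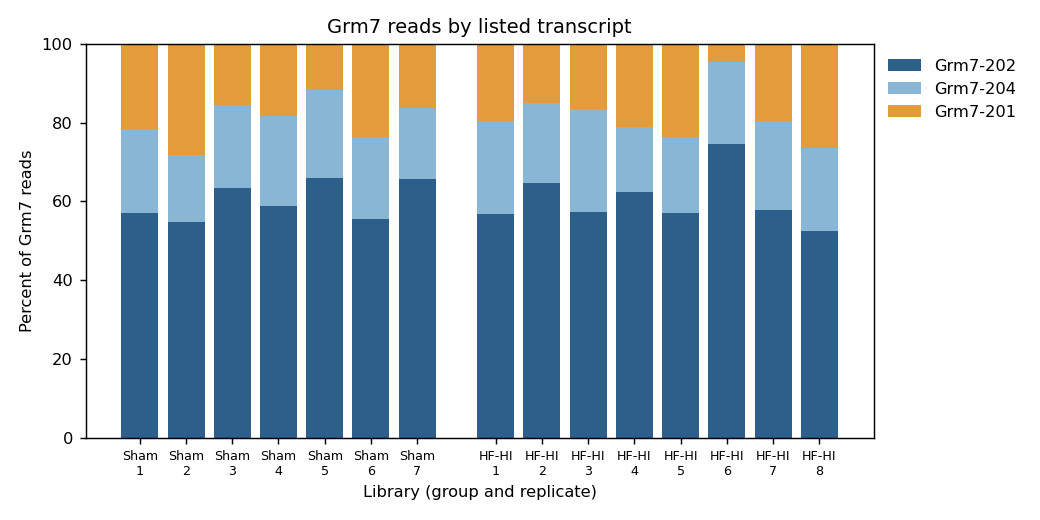
Percent of Grm7 reads (y axis, from 0 to 100) in Grm7-202 (dark blue), Grm7-204 (light blue) and Grm7-201 (orange) in each library (x axis, Sham on the left and HF-HI on the right). Grm7-201 takes between 4.70% and 28.2% of the reads, and the groups overlap for each transcript.

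Grm8, the second group III receptor, lies on chromosome 6 at 27275119 to 28134545 and was near the lower limit of the listed transcripts. It held 121, 144 and 191 normalized counts in the lowest, median and highest Sham library and 94.7, 123 and 194 in HF-HI, from 57 to 273 reads. In 7 of 8 HF-HI libraries it was below the Sham median, and 4 were below the lowest Sham library, while HF-HI replicate 1 was the highest of all 15. The log2 difference was -0.18, from -0.45 to 0.09 (unadjusted p = 0.19, adjusted p = 0.72, limma voom). Without HF-HI replicate 1 it was -0.27 (unadjusted p = 0.024, adjusted p = 0.44, limma voom).

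Among the kainate subunits, Grik3 and Grik5 had narrow ranges and Grik2 a wide one, and none passed the unadjusted threshold. Grik3, on chromosome 4 at 125490700 to 125714173, held 785, 822 and 931 normalized counts in the lowest, median and highest Sham library and 767, 840 and 883 in HF-HI. Its log2 difference was -0.00, from -0.09 to 0.09 (unadjusted p = 0.99, adjusted p = 1.00, limma voom). Grik5, the high-affinity subunit on chromosome 7 at 25009849 to 25072292, held 794, 834 and 951 in Sham and 797, 878 and 1012 in HF-HI. It lay above the Sham median in 6 of 8 HF-HI libraries, and its log2 difference was 0.06, from -0.05 to 0.17 (unadjusted p = 0.25, adjusted p = 0.77, limma voom).

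Grik2, the low-affinity subunit on chromosome 10 at 49105018 to 49783259, gave 34.6, 171 and 255 normalized counts in the lowest, median and highest Sham library and 0, 208 and 325 in HF-HI. The value of 0 was in HF-HI replicate 4, the library of lowest depth, where a count of 0 allows up to 5.99 normalized counts (3 reads, counting error only). The coefficient of variation was 53.7% in Sham and 50.6% in HF-HI, while the counting error at its mean number of reads was 7.36%. The log2 difference was 0.15, from -1.56 to 1.86 (unadjusted p = 0.86, adjusted p = 0.97, limma voom), which is a fold change of 0.34 to 3.63. Without HF-HI replicate 4 it was 0.84 (unadjusted p = 0.033, adjusted p = 0.55, limma voom). No 50-base stretch of the listed Grik2 model is its own within the gene, and its value rests on how reads were divided among Grik2 transcripts that were not analysed here.

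**Figure D5:**
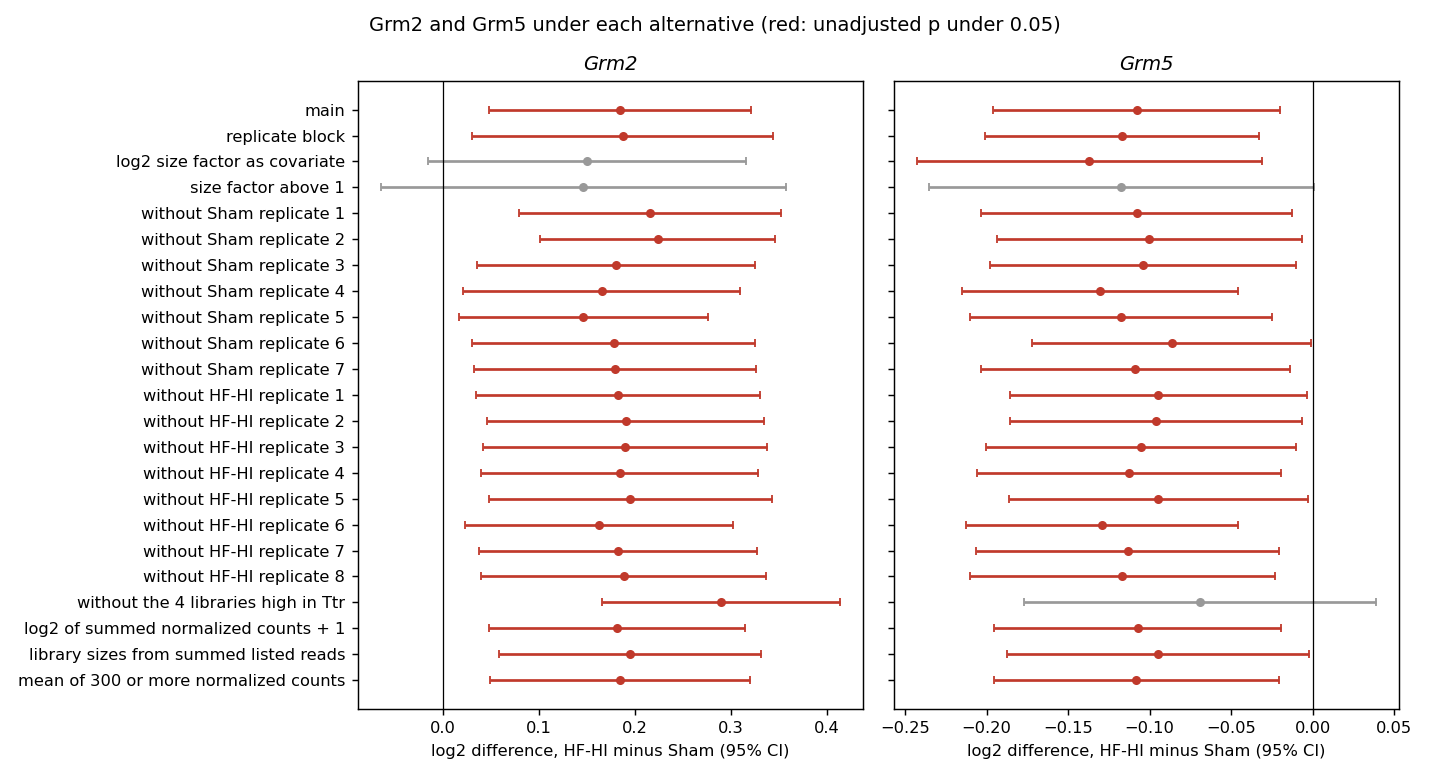
log2 difference HF-HI minus Sham (x axis, with 95% intervals) of Grm2 and Grm5 with reads summed, under each setting (y axis, from the reported fit at the top); red marks an unadjusted p under 0.05. Grm2 stays positive and Grm5 negative in each setting, between 0.15 and 0.29 and between -0.14 and -0.07.

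Of the relatives in the same families, Grm4, a group III receptor, was 196 ± 17.9 normalized counts in Sham (SD, n = 7) and 191 ± 27.3 in HF-HI (SD, n = 8), with a log2 difference of -0.06 (unadjusted p = 0.53, adjusted p = 0.89, limma voom). Grm6, Grik1 and Grik4 were not analysed here.

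Lists of signalling partners, anchors, auxiliary subunits and transporters covered 70 of 80 genes and 124 listed transcripts. Of these, 5 were higher and 5 lower at an unadjusted p under 0.05 in limma, 8.06% in all and close to the 8.83% of all transcripts, and none passed an adjusted p of 0.1. The median log2 ratio of group means was 0.00 over the 124. The count fell to 6 when Sham replicate 1, 2 or 3 or HF-HI replicate 4 was left out, to 5 with the size factor as a covariate and to 4 in libraries with a size factor above 1. Over all 10370 transcripts the count fell as well, from 916 to 773, 748, 860 and 829 without these libraries in turn. It was 533 with the covariate and 541 above a size factor of 1.

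Among 5 transcripts of kainate auxiliary and delta subunits, 1 was lower at an unadjusted p under 0.05 in limma. Over all transcripts, 8.83% passed that threshold and 3.9% were lower, and a count of 1 among 5 says little about the list. Neto2, a transmembrane protein that joins kainate receptors and slows their desensitization, fell from 1176 ± 49.8 normalized counts in Sham (SD, n = 7) to 1039 ± 89.3 in HF-HI (SD, n = 8). Its log2 difference was -0.16 (unadjusted p = 0.0032, adjusted p = 0.28, limma voom), with 7 of 8 HF-HI libraries below the Sham median. Neto1, its relative, was 520 ± 30.1 and 505 ± 49.7 (unadjusted p = 0.46, adjusted p = 0.87, limma voom).

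The Gi/o partners of group II and III receptors had 3 of 32 transcripts higher and none lower at the unadjusted threshold in limma, 9.38% in all and near the 8.83% of all transcripts. Adcy1, a neuronal adenylyl cyclase, rose from 11210 ± 520 normalized counts to 12185 ± 549, in 8 of 8 HF-HI libraries above the Sham median (log2 difference 0.11, unadjusted p = 0.0025, adjusted p = 0.26, limma voom). Kcnj9, a subunit of the potassium channels that Gi/o receptors open, rose from 797 ± 33.8 to 875 ± 54.0, also in 8 of 8 (log2 difference 0.12, unadjusted p = 0.0089, adjusted p = 0.36, limma voom). A transcript of Kcnj3, another such subunit, rose from 1084 ± 105 to 1249 ± 193, and the gene's summed log2 difference was 0.15 (unadjusted p = 0.0034, adjusted p = 0.28, limma voom). Gnao1, the Go alpha subunit, had a transcript at 1193 ± 79.6 and 1209 ± 136 (unadjusted p = 0.82, adjusted p = 0.97, limma).

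The Gq partners of group I receptors had 2 of 39 transcripts higher and 2 lower at an unadjusted p under 0.05 in limma. This was 10.3% in all, near the 8.83% of all transcripts. A transcript of Dgkz, a diacylglycerol kinase, annotated for nonsense-mediated decay rose from 129 ± 22.8 to 186 ± 55.8, and a retained-intron transcript of Plcb1 fell from 194 ± 24.1 to 161 ± 33.8. The main Plcb1 transcript, for the phospholipase C that Gq drives, was 3026 ± 137 and 3102 ± 80.4 (unadjusted p = 0.23, adjusted p = 0.76, limma). Gnaq was 1862 ± 107 and 1864 ± 93.0, and the Homer1 transcript of highest mean was 1820 ± 451 and 2019 ± 315 (unadjusted p = 0.27, adjusted p = 0.77, limma).

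Of 29 transcripts of postsynaptic anchors, 2 (6.90%) were lower and none higher at an unadjusted p under 0.05 in limma, against 8.83% of all transcripts. Actn2, an actin cross-linking protein of the spine, fell from 136 ± 27.5 to 101 ± 31.2 normalized counts. None of the 19 transcripts of glutamate transport and release passed the unadjusted threshold in limma. Slc1a2, the main astrocyte glutamate transporter, was 29882 ± 945 and 31224 ± 1474 (unadjusted p = 0.10, adjusted p = 0.64, limma).

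The genes whose level went most nearly with each receptor across the 15 libraries were listed as a description, by the Pearson correlation of log2 summed normalized counts. For Grm2 these were Pak7 (r = 0.82) and Sumf1 (r = 0.79), for Grm3 Kdm3a (r = 0.86) and Tmem260 (r = 0.79), and for Grm5 Chp1 (r = 0.82) and Lrrcc1 (r = 0.81). For Grm7 they were Ppp1r13b (r = 0.81) and Fat4 (r = 0.78), and for Grm8 Pcsk1 (r = 0.82) and Chst10 (r = 0.80). For Grik3 they were Gal3st3 (r = 0.83) and Gabra3 (r = 0.82), for Grik5 Fscn1 (r = 0.88) and Mprip (r = 0.85), and for Grik2 Cep295 (r = 0.92) and Bcap29 (r = 0.91). After group means were subtracted, the pairs were Kdm3a (r = 0.85) and Zfp84 (r = 0.81) for Grm3, Pcsk1 (r = 0.83) and Chst10 (r = 0.78) for Grm8, Ppp1r13b (r = 0.84) and Zbtb6 (r = 0.88) for Grm7 and Gabra3 (r = 0.84) and Gal3st3 (r = 0.83) for Grik3. They were Srcin1 (r = 0.89) and Fscn1 (r = 0.87) for Grik5, Cep295 (r = 0.95) and Naa38 (r = 0.93) for Grik2, Cog1 (r = 0.85) and Rbck1 (r = 0.84) for Grm2, and Sun1 (r = 0.82) and Ppp3ca (r = 0.80) for Grm5. Cep295 and Bcap29 were at 0 in HF-HI replicate 4, as Grik2 was, and without that library their r with Grik2, before subtraction of group means, was 0.28 and -0.02. The points share libraries and depth, and the genes named are the highest among 7740 annotated genes.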

How the data were processed

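Per the study's methods and labels, the authors depleted ribosomal RNA, made stranded libraries, mapped the reads to mm10 by STAR and had eXpress estimate the counts of each Ensembl transcript. The authors used DESeq2 for normalization and Cook's distance against outliers of low mean. The annotation release was not given in the sources used here. The deposited values are the authors' variance-stabilized data (VSD), on a log2 scale, of 10370 transcripts in 15 libraries. Low counts are compressed on it: 2-fold more than 300 normalized counts adds 0.33 to the VSD, and 2-fold more than 2000 adds 0.66.

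The transformation was inverted at the shared value of a count of 0 (9.81), which gave whole reads for 100% of values within 0.1 reads, and thereby size factors. Reads in listed transcripts ranged from 3496103 to 10582858 per library. No listed transcript had a mean under 107.9 normalized counts, and rarer ones were not analysed here. Where nothing in the labels says that libraries are separate animals, p-values measure only the spread between libraries.

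Transcripts were tested with limma 3.58.1 in R 4.3.3 (lmFit, eBayes with trend) on the VSD values, genes with limma voom on summed reads, and transcript shares as log2 of a transcript's reads over the gene's other listed reads with 0.5 added to each. Each fit covered all features, had group as its only term, was two-sided, and was adjusted by Benjamini-Hochberg at 0.1. An unadjusted p under 0.05 was counted as well. The fits were tested on simulated data. Group means and log2 ratios of group means are of normalized counts, while log2 differences are from voom.

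The receptor genes, the partner and marker lists and the tests were chosen with earlier results of these data known. Named partners were transcripts at an unadjusted p under 0.05, of which some that are counted are not reported by name here, together with the transcript of highest mean of Homer1, Neto1, Neto2, Gnaq, Gnao1, Plcb1 and Slc1a2. For the likeness of genes, 1 was added to normalized counts, and the 2 genes of highest correlation were named, before and after subtraction of group means. Alternatives were other scalings, filters, pseudocounts and units, the replicate number as a block, depth, each library left out, and the 4 libraries high in Ttr left out. The last was chosen after the data were seen.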

Additional observations from a re-analysis of the deposited data

Results flagged for a closer look

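In 4 of the 20 sets of 7 or 8 libraries examined (10 transcripts in each group), a library stood apart from the rest by more of the range than Dixon's 95% limit. Chance flags about 1 in 20 such sets.

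Grm2 in HF-HI replicate 6 was 355 normalized counts, against 305 to 322 in the other 7 HF-HI libraries. Grm8 in Sham replicate 5 was 191, against 121 to 147 in the other 6, and Grm8 in HF-HI replicate 1 was 194, against 94.7 to 133 in the other 7. Grik3 in Sham replicate 4 was 931, against 785 to 838 in the other 6.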

How the results depend on the processing

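The count of receptor transcripts at an unadjusted p under 0.05, 2 in the reported fit, was 1 with the log2 size factor as a covariate (Grm5 kept), 0 in libraries with a size factor above 1 and 1 without the 4 libraries high in Ttr (Grm2 kept). The count of genes, also 2, was 1, 0 and 1 under the same settings, and the receptor kept was the same. Over all 10370 transcripts the count fell under these settings too, from 916 to 533, 541 and 677. Over all 7869 genes it fell from 735 to 485, 408 and 552. With each library left out in turn the count ranged from 1 to 3 for transcripts, 2 to 3 for genes and 6 to 11 for partner transcripts (10 reported). Over all transcripts it then ranged from 748 to 987, and over all genes from 617 to 817. The low count of transcripts came without Sham replicate 6, where Grm5 was lost. Grm8 was called lower without HF-HI replicate 1, and Grik2 summed higher without HF-HI replicate 4. Partner transcripts numbered 5 with the size factor as a covariate and 4 above 1. Grm7 shares gave a count of 0 in each setting that could be fitted, and the filter at a mean of 200 left no share of Grm7 to test.

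Over its alternatives Grm2 was called in 25 of 27 as a transcript and 20 of 22 as a gene, with adjusted p from 0.40 to 0.96 and from 0.21 to 0.97. Grm5 was called in 24 of 27 and 20 of 22, with adjusted p from 0.40 to 0.95 and from 0.28 to 0.94. Other scalings, pseudocounts, units, weights and filters changed neither call. With the replicate block, 2 transcripts and 2 genes were again called (Grm2 0.19 and Grm5 -0.12 on the log2 scale), and the count was 10 for partner transcripts and 0 for Grm7 shares. Deviations of libraries with the same number correlated from -0.14 to 0.09, and 1 of 7 numbers correlated best with its own. No pairing by number was seen, though such correlations could miss a small shared effect.

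The lowest number of reads in a library was 57 for Grm8, 35 for Grm7-201 and 0 for Grik2. Size factor and group cannot be told apart fully, since 6 Sham and 3 HF-HI libraries were above 1.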

Other observations

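The ratio of Grm2 to Grm5 within a library, which does not depend on the size factor, was 0.108 to 0.140 in Sham and 0.140 to 0.157 in HF-HI, and 7 of 8 HF-HI libraries lay above the highest Sham library. This pair was chosen after the values were seen, as the receptor that passed higher and the one that passed lower, so the ratio is a description and was not tested. Grik5 over Grik3 was 0.992 to 1.06 in Sham and 0.960 to 1.16 in HF-HI.

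Across the 15 libraries the 28 pairs of receptor genes had correlations from -0.55 (Grm3 with Grm8) to 0.69 (Grik3 with Grik5), with a median of -0.10. Summed markers of interneurons ranged from 5481 to 6187 normalized counts in Sham and 5108 to 6126 in HF-HI, with Lhx6 not analysed here. Those of oligodendrocytes ranged from 28787 to 32935 and 27246 to 33802, those of microglia from 2131 to 2268 and 1965 to 2310, and those of endothelium from 2759 to 3059 and 2626 to 3016. The genes chosen for hippocampal neurons, Prox1, Zbtb20, Wfs1 and Neurod2, summed to 2476 to 2827 and 2476 to 3231, with Dsp not analysed here. Neurod2 is made by cortical neurons as well, so this sum does not measure hippocampal tissue.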
